A study of Mus musculus with 6 samples.

Results

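Glutamine uptake and use was described in bone marrow pre-B cells through 9 genes, of 11271 genes tested on the same arrays. Slc1a5 was the lead gene and was selected on its measured log2 difference between the 2 groups of these arrays, so this difference is given as a description and without a test. The other 8 genes, Slc38a1, Slc38a2, Slc7a5, Slc3a2, Glul, Glud1, Got1 and Got2, were chosen for their roles in glutamine transport and glutamate metabolism, with earlier results of these arrays known. Each of the 9 genes was read by a single probe set in the deposited table, and all 9 passed the filter on dim probe sets. That table held 17689 probe sets with exactly 1 symbol for 17372 genes, so few genes had a second one to compare. Probe sets of the array that are absent from it could not be read.

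RNA of pre-B cells, B-cell precursors that rearrange their light chain genes, was read on Affymetrix mouse arrays, 3 in each group. The cells were sorted from the bone marrow of mice 9 months old. The Mef2c-deficient group carried Vav-Cre and floxed Mef2c alleles (Vav-Cre Mef2cfl/fl). The control group is labelled control only. Per the study's methods, controls of the same age could be floxed mice without Cre, with 1 or both alleles floxed, or Vav-Cre mice with 1 floxed allele, and the genotype of each control array was not given. Vav-Cre acts throughout the blood system, so the deletion was not limited to B cells. No source used here ties an array to an animal, so p-values refer to the spread between the samples, and 3 arrays a group limit the precision.

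Glutamine is taken up by dividing lymphocytes as a source of nitrogen and carbon. It enters through sodium-dependent carriers, among them the exchanger SLC1A5 (also called ASCT2) and the amino acid transporters SLC38A1 and SLC38A2, and part of it leaves the cell again through the SLC7A5-SLC3A2 exchanger in return for leucine and other large neutral amino acids. Inside the cell it is deamidated to glutamate, which glutamate dehydrogenase and the transaminases convert to 2-oxoglutarate for the citric acid cycle. Glutamine synthetase runs the first step in reverse.

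All levels below are log2 of the deposited values, and all differences are Mef2c-deficient minus control. The study's methods state a quantile normalization, and the median deposited value per array still ran from 236 to 285. The exponent base used to leave the log scale was not stated. The highest deposited value, with a log2 of 21.03, lay above 65535, the 16-bit maximum, which goes with a base of e more readily than with 2. With e as that base, each log2 difference would be 0.69 times the printed one, with the same direction and p-value. In bulk RNA of a sorted population, fewer cells of a type and less RNA per cell cannot be told apart. Over all genes tested the median difference was -0.36, and 7026 genes (62.3%) had a lower mean in Mef2c-deficient arrays.

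Markers of other cell types were not equal between the arrays. Of 17 B-lineage markers 14 had lower means in Mef2c-deficient cells, and the log2 of their summed values ran from 21.22 to 21.52 in control and from 20.64 to 21.26 in Mef2c-deficient arrays. The B-cell receptor component genes Cd79a and Cd79b were bright in all 6 arrays, between 17.80 and 19.22. Higher means were found in 16 of 17 markers of plasmacytoid dendritic cells, which share B220 with B cells (summed level 18.72 to 19.32 against 19.25 to 20.81), in 9 of 10 neutrophil markers (15.09 to 17.45 against 15.51 to 20.30), in 9 of 9 monocyte and macrophage markers (15.67 to 16.84 against 16.27 to 19.37) and in 8 of 9 T-cell and natural killer cell markers (11.33 to 12.45 against 12.20 to 15.68). In these 4 lists the highest Mef2c-deficient sum was in replicate 3 and the highest control sum in control replicate 3, while the lowest B-lineage sum was in Mef2c-deficient replicate 3. Spib, a bright gene in the plasmacytoid sum (mean 18.59 in control and 18.32 in Mef2c-deficient arrays), was the marker of that list with a lower mean. At an unadjusted limma p under 0.05, 5, 0, 1 and 4 genes of the 4 lists, in the order above, were higher, where 5.32% of all genes were. Lower means were found in 4 of 7 erythroid markers (17.55 to 17.73 against 16.84 to 17.50) and 5 of 9 plasma cell markers (18.49 to 18.85 against 17.87 to 18.44). The counts cover markers that passed the filter on dim probe sets, and none of them was at 0. The spiked-in bacterial control bioB, read by 6 probe sets, was 0.95 to 2.74 above the control mean in Mef2c-deficient arrays. The part of these differences in the values below was not tested, and values without single arrays are given beside them.

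Slc1a5, on chromosome 7, encodes the sodium-dependent exchanger that carries glutamine and other small neutral amino acids across the plasma membrane. Its log2 level was 14.60, 14.23 and 14.23 in control replicates 1 to 3 and 10.51, 9.86 and 10.65 in Mef2c-deficient replicates 1 to 3. Every Mef2c-deficient array was low, and the lowest control array stood 3.58 above the highest Mef2c-deficient array. The deposited values themselves were 24888, 19218 and 19240 in the control arrays and 1459, 929 and 1608 in the Mef2c-deficient arrays. The mean was 14.36 ± 0.21 in control and 10.34 ± 0.42 in Mef2c-deficient arrays (SD, n = 3). This difference of -4.02 (SE 0.32) is 16.2-fold as deposited and 6.88-fold on the base of e. It was the third lowest difference among the genes tested. Within replicate numbers 1, 2 and 3 the difference was -4.09, -4.37 and -3.58. The difference was -4.17 without Mef2c-deficient replicate 3, -4.08 without control replicate 3 and -3.77 without Mef2c-deficient replicate 2. With every control array at least 3.58 above every Mef2c-deficient array, leaving out 1 array could not make it small. The part of other cell types in this difference was not tested. Other scalings of the arrays, which brought the median of all genes nearer to 0, left the difference of Slc1a5 at -3.72 after centring on the median, -3.65 after quantile normalization of the log2 values and -3.47 after cyclic loess.

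**Figure D1:**
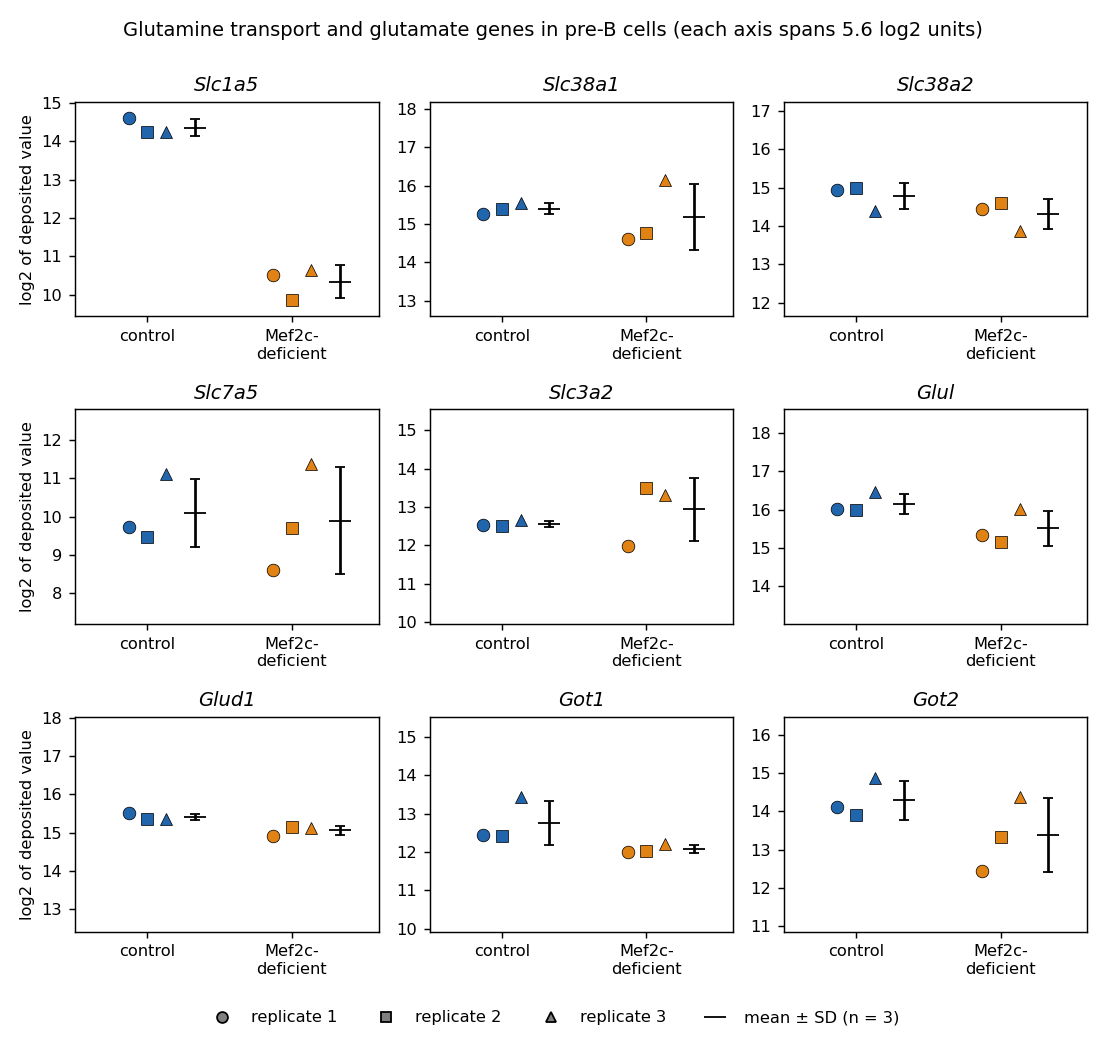
Log2 of the deposited value (vertical axes, each spanning the same number of log2 units) of 9 genes in control (blue, n = 3) and Mef2c-deficient (orange, n = 3) arrays, where marker shapes tell replicates apart and the mean and SD stand beside them. Slc1a5 had means of 14.36 and 10.34 with a wide gap, while the groups overlapped in Slc38a1, Slc38a2, Slc7a5, Slc3a2, Glul and Got2 and stood apart by a narrow gap in Glud1 and Got1.

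None of the other 8 genes passed a limma adjusted p of 0.05, where 2 of 11271 genes (0.0177%) did. Before adjustment 0 of the 8 passed limma's threshold of 0.05, where 20.9% of all genes did as lower and 5.32% as higher. The methods' t-test passed Glud1 alone before adjustment and 0 of the 8 after it. Their median difference was -0.41, against -0.36 for all genes tested. Control and Mef2c-deficient arrays stood apart in 2 of the 8, Glud1 and Got1, both lower, where 37.7% of all genes did not overlap, 27.1% lower and 10.6% higher. The difference between Slc1a5 and the others was not tested, since Slc1a5 was chosen for its size.

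Slc38a1, which encodes the carrier SNAT1, was at 15.26, 15.39 and 15.56 in control replicates 1 to 3 and at 14.62, 14.77 and 16.16 in Mef2c-deficient replicates 1 to 3. A pair of Mef2c-deficient arrays lay below every control array and Mef2c-deficient replicate 3 lay above them. The log2 difference was -0.22 (SE 0.44, 95% interval -1.25 to 0.81, limma adjusted p = 0.718). Its sign was positive after quantile normalization (0.01), median centring (0.07) and cyclic loess (0.22) and without Mef2c-deficient replicate 1 (0.06), and without Mef2c-deficient replicate 3 it was -0.71 (limma adjusted p = 0.139). The probe set of Slc38a1 is of a type that can bind related transcripts.

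Slc38a2, which encodes the carrier SNAT2 and is known to be induced when amino acids run short, was at 14.95, 15.00 and 14.38 in control replicates 1 to 3. In Mef2c-deficient replicates 1 to 3 it was at 14.44, 14.61 and 13.88. The groups overlapped, with the third replicate low in each. The difference was -0.46 (SE 0.33, 95% interval -1.24 to 0.31, limma adjusted p = 0.354), and it was -0.51, -0.38 and -0.50 within replicate numbers 1, 2 and 3. After cyclic loess it was 0.03, and without Mef2c-deficient replicate 3 it was -0.25.

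Slc7a5 and Slc3a2 encode the light and heavy chain of the exchanger that trades intracellular glutamine for leucine. Slc7a5, the transporting chain also called LAT1, was at 9.72, 9.47 and 11.10 in the control arrays and at 8.61, 9.70 and 11.38 in the Mef2c-deficient arrays. The third replicate was the highest in each group, and the spread within groups (SD 0.88 and 1.39) exceeded the difference of -0.20 (SE 0.74, 95% interval -1.92 to 1.52, limma adjusted p = 0.842). The difference was positive without Mef2c-deficient replicate 1 (0.44), without control replicate 3 (0.30) and under each of the other scalings (0.02 to 0.09), and it was -0.94 without Mef2c-deficient replicate 3. In replicate 3 of each group, where Slc7a5 was highest, the medians of the marker lists relative to the control mean were 0.92 and 3.39 for plasmacytoid dendritic cells, 1.01 and 4.33 for neutrophils, 0.67 and 1.74 for monocytes and macrophages, and 0.50 and 2.15 for T cells and natural killer cells (control, then Mef2c-deficient). In the other 4 arrays they ran from -0.57 to 1.06, -1.20 to -0.02, -0.45 to 0.71 and -0.34 to 0.68. Their part in the level of Slc7a5 was not tested.

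Slc3a2, the shared heavy chain known as CD98hc, was the only one of the 9 genes with a higher mean in Mef2c-deficient cells. It was tight in the control arrays, at 12.53, 12.50 and 12.65, and spread in the Mef2c-deficient arrays, at 11.98, 13.51 and 13.31. Of these, replicate 1 lay below all controls and replicates 2 and 3 above them. The difference was 0.38 (SE 0.43, 95% interval -0.63 to 1.39, limma adjusted p = 0.54). It was 0.85 without Mef2c-deficient replicate 1 and 0.09 without replicate 2, and 0.67 to 0.93 under the other scalings.

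**Figure D2:**
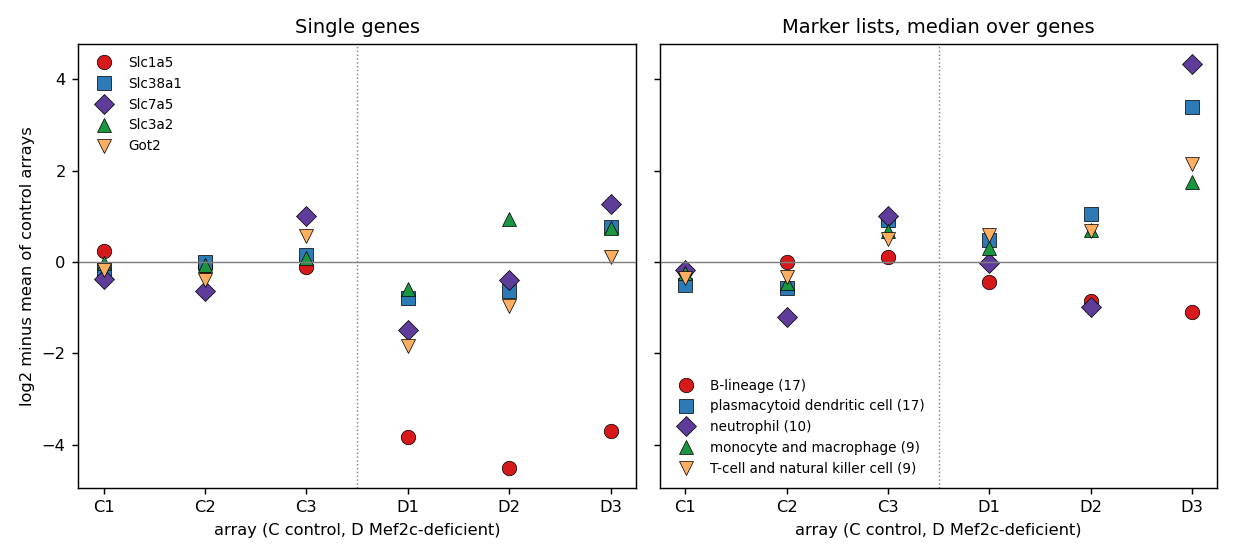
Log2 level minus the mean of the control arrays (vertical axis) in each array (horizontal axis), for 5 single genes (left) and as the median over the tested genes of marker lists (right, number of genes in parentheses). Slc1a5 was low in all Mef2c-deficient arrays, while Slc7a5 was highest in replicate 3 of each group, where the medians of the 4 lists of other cell types were also the highest of their group, from 0.50 to 1.01 in control and from 1.74 to 4.33 in Mef2c-deficient cells.

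Glul encodes glutamine synthetase, which makes glutamine from glutamate and ammonia. It was at 16.03, 15.99 and 16.46 in the control arrays. In the Mef2c-deficient arrays it was at 15.35, 15.17 and 16.03. Mef2c-deficient replicate 3 alone reached the control range. The difference was -0.64 (SE 0.33, 95% interval -1.42 to 0.14, limma adjusted p = 0.242), with values of -0.68, -0.82 and -0.43 within the replicate numbers. It was negative under each of the other scalings and without each single array, from -0.90 without Mef2c-deficient replicate 3 to -0.24 after cyclic loess.

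Glud1, which encodes the mitochondrial glutamate dehydrogenase, was at 15.51, 15.37 and 15.37 in the control arrays and at 14.92, 15.14 and 15.13 in the Mef2c-deficient arrays. The groups did not overlap, with a gap of 0.23. The difference of -0.35 (SE 0.26, 95% interval -0.95 to 0.25, limma adjusted p = 0.362) equalled the median of all genes to within 0.01, and it was 0.09 after cyclic loess.

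Got1 and Got2 encode the cytosolic and the mitochondrial aspartate transaminase, which move the amino group of glutamate to oxaloacetate and take part in the malate-aspartate shuttle. Got1 was at 12.44, 12.43 and 13.43 in the control arrays and at 12.01, 12.04 and 12.21 in the Mef2c-deficient arrays. All Mef2c-deficient arrays were below all controls with a gap of 0.22, and the third control array stood apart from the other 2. The difference was -0.68 (SE 0.35, 95% interval -1.50 to 0.14, limma adjusted p = 0.242). Without control replicate 3 it was -0.35. The groups of Got1 overlapped after each of the 3 other scalings, with differences of -0.38, -0.21 and -0.13.

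Got2 was at 14.12, 13.89 and 14.86 in the control arrays and at 12.45, 13.33 and 14.38 in the Mef2c-deficient arrays. Mef2c-deficient replicate 3 lay within the control range and the other 2 lay below it. Its difference of -0.90 (SE 0.52, 95% interval -2.12 to 0.32, limma adjusted p = 0.278) was the lowest of the 8 genes. Within the replicate numbers it was -1.66, -0.56 and -0.48. Without Mef2c-deficient replicate 3 it was -1.40 (limma adjusted p = 0.0921), without Mef2c-deficient replicate 1 it was -0.43, and in a limma fit blocked on replicate number its p was 0.0442 before and 0.161 after adjustment.

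The 250 bases before the start of Got1 and of Got2 are shown because these paired enzymes had the lowest differences of the 8 genes as deposited (after quantile normalization and cyclic loess Glul was lower than Got1) and the core of the amino acid response element, TGATGNAA, a site type of ATF4 and C/EBP factors, was found before Got1 and not before Got2. They are from RefSeq on GRCm38.p6, which held an entry for 6 of the 9 genes (Slc38a2, Slc3a2, Glul, Glud1, Got1 and Got2), both lie on the minus strand and are written 5′ to 3′, and capitals mark the match, which reads on the opposite strand. Got1 is at chr19:43524606-43524855 and Got2 at chr8:95888402-95888651.
Got1: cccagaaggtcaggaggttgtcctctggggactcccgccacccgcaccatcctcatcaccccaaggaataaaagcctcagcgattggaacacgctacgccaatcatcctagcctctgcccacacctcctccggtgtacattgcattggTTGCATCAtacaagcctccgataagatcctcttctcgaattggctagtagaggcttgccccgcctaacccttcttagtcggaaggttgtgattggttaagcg
Got2: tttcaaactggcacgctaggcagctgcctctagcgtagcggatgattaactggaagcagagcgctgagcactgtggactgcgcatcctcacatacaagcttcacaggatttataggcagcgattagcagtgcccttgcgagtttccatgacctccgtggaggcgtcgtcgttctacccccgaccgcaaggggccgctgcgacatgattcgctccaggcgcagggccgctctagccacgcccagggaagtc
This core was in 1 of the 6 and in 3.45% of all 32851 promoters of the same length. The E-box CACGTG, a site type of MYC, was in 0 of the 6 and in 6.02% of all, and the MEF2 consensus was in 0 of the 6 and in 2.92% of all. Both strands were searched, in the 250 bases only. A match is a description of the letters and not of binding.

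**Figure D3:**
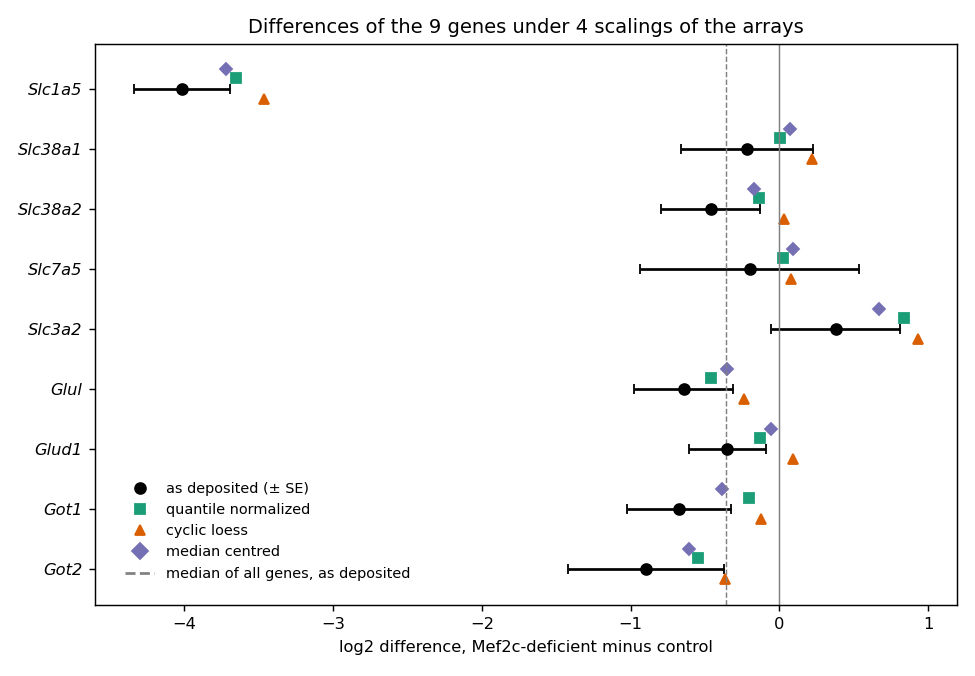
Log2 difference, Mef2c-deficient minus control (horizontal axis), of 9 genes (vertical axis) on the deposited scale (black, with the limma SE) and under 3 other scalings of the arrays, with the median of all genes tested (dashed, -0.36). Slc1a5 lay between -4.02 and -3.47 and the other 8 genes between -0.90 and 0.93.

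Relatives of Slc1a5 and of the SNAT carriers were read on the same arrays. The 6 other genes of its family that were tested were Slc1a1, Slc1a2, Slc1a3, Slc1a4, Slc1a6 and Slc1a7. All 6 had higher means in Mef2c-deficient cells, with a median difference of 0.72, where 62.3% of all genes had lower means (median -0.36). Slc1a1 and Slc1a6, with control means of 7.09 and 7.21, passed the filter at 7.26 only through their Mef2c-deficient values. Without the filter the family still numbered 6, all higher, while 47.5% of all genes had lower means (median 0.07). The part of low signal in these differences was not tested. After quantile normalization and after cyclic loess 5 of the 6 were higher (medians 0.60 and 0.58). Slc1a3, which encodes a glutamate transporter, was at 9.57, 8.81 and 8.82 in the control arrays and at 14.33, 11.51 and 10.12 in the Mef2c-deficient arrays. Every Mef2c-deficient array was above the controls, with replicate 1 far above the rest, and the difference was 2.92 (SE 0.96, limma adjusted p = 0.136), or 1.75 without that replicate. The probe set of Slc1a3, like those of Slc38a1 and of Acly and Shmt2 below, is of a type that can bind related transcripts. Slc1a4, the closest relative of Slc1a5 in substrates, was at 10.30, 11.21 and 11.15 against 11.02, 12.66 and 11.78, a difference of 0.93 (SE 0.48, limma adjusted p = 0.241). Of 5 further Slc38 genes 4 had lower means under each scaling, with a median of -0.74 as deposited, -0.46 after quantile normalization, -0.44 after centring, -0.27 after cyclic loess and -0.40 without Mef2c-deficient replicate 3. The lowest were Slc38a6 at -1.28 (SE 0.33, limma adjusted p = 0.107) and Slc38a10 at -0.74 (SE 0.29, limma adjusted p = 0.168), which was at -0.27 after cyclic loess. These family groupings were made after the values were seen. Slc38a5 and Slc7a11, which encode another glutamine carrier and the cystine-glutamate exchanger, were below the filter, with mean levels of 4.94 and 2.91 on a single probe set each.

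Of 142 tested genes in 7 lists of the wider pathway, 0 passed a limma adjusted p of 0.05 in either direction, and 0 did with the methods' t-test. At an unadjusted p under 0.05, 32 (22.5%) were lower and 2 (1.41%) higher, against 20.9% and 5.32% of all genes tested, and their median difference was -0.53, against -0.36. The balance of lower and higher calls moved with the scaling, in these lists as in all genes. After quantile normalization 14 were lower and 7 higher (9.86% and 4.93%, against 11.1% and 7.22% of all genes). After cyclic loess 12 were lower and 8 higher (8.45% and 5.63%, against 10.2% and 8.26%), and after median centring 16 and 17 (11.3% and 12%, against 10.7% and 14.0%). A fit blocked on replicate number gave counts of 43 and 8 (30.3% and 5.63%, against 23.1% and 6.72%). Medians relative to that of all genes were -0.18 as deposited, -0.16 after quantile normalization and cyclic loess and -0.18 after centring. The part of the marker and bioB values given above in these counts was not tested. Without Mef2c-deficient replicate 3 the counts were 38 lower and 2 higher (26.8% and 1.41%, against 23.7% and 7.07% of all genes). Without control replicate 1 and without control replicate 3 the lower counts were 21 and 19, for which the shares of all genes are not given here.

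Among 14 carriers of glutamine and glutamate 5 had lower and 9 higher means (median 0.36), with 2 lower (Slc38a6 and Slc38a10) and 1 higher (Slc1a3) at an unadjusted p under 0.05, where all genes gave 20.9% and 5.32%. After median centring 1 was lower and 7 higher (7.14% and 50%, against 10.7% and 14.0% of all genes). After quantile normalization and cyclic loess the counts were 1 and 3 (7.14% and 21.4%). All genes gave 11.1% and 7.22% after quantile normalization and 10.2% and 8.26% after cyclic loess. The 9 with higher means include Slc1a1 and Slc1a6, which passed the filter only through their Mef2c-deficient values. Slc25a22, which encodes a mitochondrial glutamate carrier, had a difference of 0.82 (SE 0.36, limma adjusted p = 0.194), and of 0.49 without Mef2c-deficient replicate 3. Among 13 other amino acid exchangers 9 had lower means (median -0.30), where 62.3% of all genes did. At an unadjusted p under 0.05, 5 (38.5%) were lower, against 20.9% of all genes. Under the other scalings 7 of the 13 had lower means and 2 to 3 were lower at that p. They included the lysosomal and plasma membrane carrier genes Slc36a4 (-1.33, SE 0.37) and Slc36a1 (-1.36, SE 0.46), the SLC3A2 partner Slc7a6 (-1.26, SE 0.37) and the leucine carrier Slc43a2 (-2.73, SE 1.12), with limma adjusted p of 0.114 to 0.179. Slc43a2 was at 8.44, 9.16 and 4.37 in the Mef2c-deficient arrays, so that replicate 3 stood far below the other 2, and without it the difference was -1.25.

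Enzymes that use glutamine or make and break glutamate had lower means in 26 of 32 genes (median -0.46), with 8 called lower and 0 higher before adjustment (p under 0.05), against 62.3%, 20.9% and 5.32% of all genes. Under the other scalings 21 of the 32 had lower means, and the calls were 3 and 0 after quantile normalization, 2 and 0 after cyclic loess and 2 and 3 after median centring. Of all genes, 10.2% to 11.1% were called lower and 7.22% to 14.0% higher under these scalings. Pfas, of purine synthesis, differed by -1.13 (SE 0.29, limma adjusted p = 0.108), Cad, of pyrimidine synthesis, by -1.16 (SE 0.42, limma adjusted p = 0.152), Gclc, of glutathione synthesis, by -1.38 (SE 0.38, limma adjusted p = 0.112) and Oat, which links ornithine and glutamate, by -1.01 (SE 0.36, limma adjusted p = 0.149). The groups did not overlap in any of the 4, which were named for the smallest p of their list. In the whole list of 32 the groups stood apart in 10 genes as lower and 1 as higher, where 27.1% and 10.6% of all genes did. Asns, which encodes asparagine synthetase, was at 8.90, 8.72 and 10.61 in the control arrays and at 7.0, 8.58 and 8.62 in the Mef2c-deficient arrays. The groups stood apart by a narrow gap, with control replicate 3 high and Mef2c-deficient replicate 1 low. The difference of Asns was -1.34 (SE 0.64, limma adjusted p = 0.218), and it was -0.74 without that control array and -0.81 without that Mef2c-deficient array. In the citric acid cycle 19 of 20 genes had lower means (median -0.58), where 62.3% of all genes did. This count was 19 after quantile normalization and centring and 13 after cyclic loess. At an unadjusted p under 0.05, 4 (20%) were lower and 0 higher, near the 20.9% of all genes that were lower. After quantile normalization and cyclic loess 0 were lower and after centring 1 (5%), where 10.2% to 11.1% of all genes were. As deposited, the list thus held no larger share of lower genes than all genes did. The 4 lower as deposited were Dlst (-0.70, SE 0.26) and Dld (-0.97, SE 0.28), which encode parts of the 2-oxoglutarate dehydrogenase complex, Sucla2, of succinyl-CoA ligase (-0.97, SE 0.28), and the citrate lyase gene Acly (-0.94, SE 0.34). Their limma adjusted p ran from 0.121 to 0.158.

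Of 31 genes of mTORC1, the growth kinase complex that amino acids activate, and of its sensors, 26 had lower means (median -0.61), where 62.3% of all genes did. Before adjustment (p under 0.05) 6 (19.4%) were called lower and 0 higher, against 20.9% and 5.32% of all genes. Under the other scalings 4 to 5 were called lower and 1 to 2 higher. Of all genes, 10.2% to 11.1% were called lower and 7.22% to 14.0% higher under these scalings. The kinase gene Mtor differed by -1.75 (SE 0.43, limma adjusted p = 0.103), the Rag GTPase genes Rragd by -1.70 (SE 0.29, limma adjusted p = 0.0769) and Rragc by -1.11 (SE 0.29, limma adjusted p = 0.108), and Seh1l, of the GATOR2 complex, by -1.26 (SE 0.30, limma adjusted p = 0.0975). Of 18 genes of the amino acid response 10 had lower and 8 higher means (median -0.49). Before adjustment (p under 0.05) 3 (16.7%) were called lower and 1 (5.56%) higher, near the 20.9% and 5.32% of all genes. Under the other scalings 1 to 2 were called lower and 1 to 4 higher. Mthfd2, a mitochondrial folate enzyme, differed by -1.74 (SE 0.41), the serine-to-glycine enzyme gene Shmt2 by -1.0 (SE 0.37), Cebpg by -1.21 (SE 0.38) and Eif4ebp1, which encodes a translation inhibitor, by 1.02 (SE 0.42), with groups that overlapped. Atf4, the transcription factor of this response, had a difference of 0.70 (SE 0.34, limma adjusted p = 0.219). Among 14 regulators of glutamine genes 12 had lower means (median -0.73). Under the other scalings 1 to 2 were called lower and 1 higher before adjustment (p under 0.05). As deposited 4 (28.6%) were called lower and 0 higher, against 20.9% and 5.32% of all genes. The 4 were Nfe2l2 (-1.24, SE 0.31), Ctnnb1 (-1.15, SE 0.35), Mlx (-0.92, SE 0.30) and E2f1 (-1.76, SE 0.71). E2f1 was at 12.44, 12.21 and 12.87 in control replicates and at 11.30, 9.0 and 11.94 in Mef2c-deficient replicates, and without replicate 2, the lowest, its difference was -0.89. Its limma p before adjustment was 0.132 after quantile normalization and 0.138 after cyclic loess. Myc, an activator of glutamine uptake genes in dividing cells, was at 12, 12.51 and 12.30 in the control arrays and at 11.90, 14.28 and 13.71 in the Mef2c-deficient arrays. Replicate 1 lay below the controls and the other 2 above them, as in Slc3a2, and the difference of Myc was 1.02 (SE 0.59, limma adjusted p = 0.274), 1.72 without replicate 1 and 0.53 without replicate 2.

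**Figure D4:**
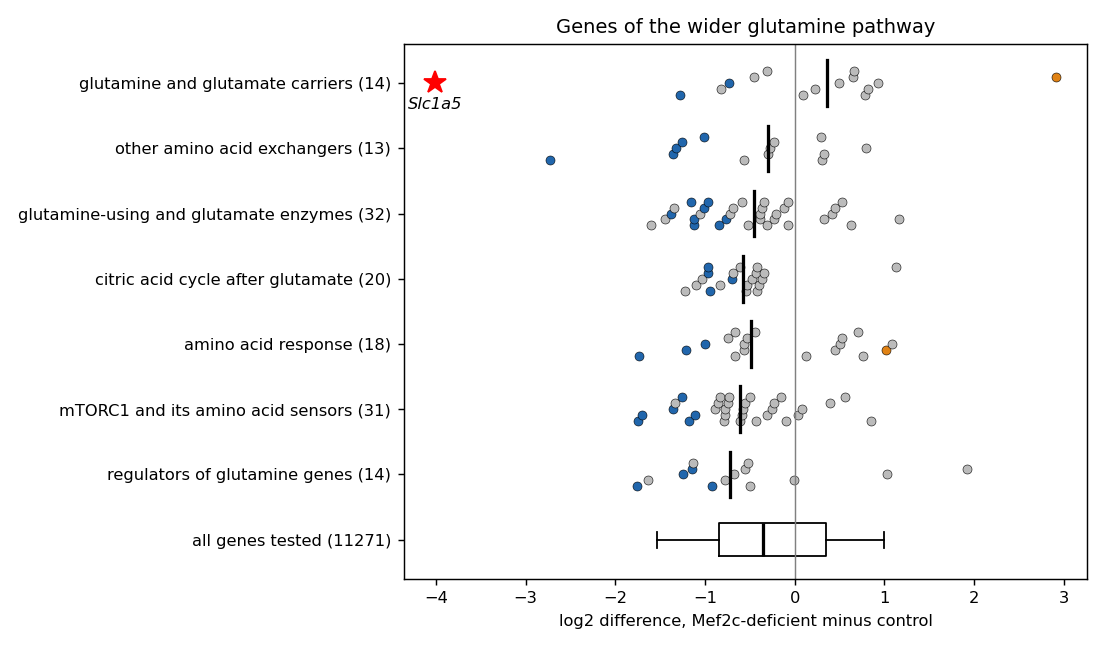
Log2 difference, Mef2c-deficient minus control (horizontal axis), of each tested gene in 7 lists (number of genes in parentheses), with a line at the median of each list. Blue and orange mark genes lower or higher at an unadjusted limma p under 0.05, the star marks Slc1a5, which was not counted in the list, and the box shows the quartiles of all genes tested with whiskers at the 5th and 95th percentile. The list medians ran from -0.73 to 0.36, and none of the listed genes was as low as Slc1a5.

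The genes whose profile over the 6 arrays was nearest to that of Slc1a5 were not carriers. Likeness was taken as the root mean square difference between log2 levels, each relative to the gene's own control mean. The 5 nearest were Rapgef3, an exchange factor for Rap (0.41), the kinetochore gene Zwilch (0.69), the recombination gene Rad51ap1 (0.69), Tmprss3, a serine protease (0.74), and the kinetochore gene Cenpf (0.77), with differences of -3.61 to -3.15. Their levels correlated with Slc1a5 over the 6 arrays at Pearson's r of 0.956 to 0.989, values that the difference between the groups largely sets. The root mean square difference is set in the same way by the size of each gene's own difference, and it ran from 2.30 (Got2) to 3.17 (Slc3a2) in the other 8 genes.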

How the data were processed

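RNA of sorted pre-B cells was measured on Affymetrix Mouse Genome arrays, 3 control and 3 Mef2c-deficient. The deposited table gives the linear intensity of 23913 probe sets, made by the authors after background adjustment, quantile normalization and robust multiarray averaging (RMA) per the study's methods, which also name limma. The versions used are not stated. The highest value had a log2 of 21.03 and a natural log of 14.58. It lies above 65535, the 16-bit maximum, which goes with a base of e more readily than with a base of 2. The base was not stated, so log2 differences and folds as deposited may be too large.

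Log2 was taken without an offset. Names came from a platform annotation table that can be old, and the 17689 with exactly 1 symbol were used. For 17538 of them the gene identifier was found in a RefSeq table, with 0 symbols changed. Probe sets with a mean log2 above the 40th percentile (7.26) were kept, with the brightest representing a gene. Groups were tested by limma 3.58.1 under R 4.3.3 (group as the only term, default eBayes, two-sided, Benjamini-Hochberg over 11271 genes). The code was tested on simulated data.

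The genes, lists and tests were chosen with earlier results of these data known. The rule for naming took the 9 genes, up to 4 genes of each of 7 pathway lists by the smallest unadjusted p, Slc38a5, Slc7a11, Asns, Myc and Atf4, the brightest markers of each cell type list, and the 5 nearest profiles. Some genes under this rule are not reported here. The cell type lists cover B-lineage, plasmacytoid dendritic, neutrophil, monocyte and macrophage, T and natural killer, erythroid and plasma cells.

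Deviations from the group mean correlated across genes between same-numbered arrays of the 2 groups (0.348, 0.226 and 0.373 for replicates 1, 2 and 3). Between arrays of different number the correlation ran from -0.309 to 0.129. These values and the common numbers are the basis of the pairing, and what a replicate number marks is not stated. Replicate 3 of each group also held the highest sums of plasmacytoid dendritic, neutrophil, monocyte and T-cell markers. The part of these markers in the correlations was not tested.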

Additional observations from a re-analysis of the deposited data

How the results depend on the processing

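In 21 alternatives the difference of Slc1a5 stayed negative, though many of them could not change its sign. Those of filter, probe set, test and block left the difference as it was, and the base of e only multiplies it by 0.69. It was -3.65 after quantile normalization, -3.47 after cyclic loess and -2.78 on the base of e, and lay between -4.17 and -3.77 when single arrays were left out. None of the other 8 genes passed an adjusted p of 0.05 under any alternative, and the replicate block gave 0 calls among them and changed no call of theirs or of the pathway genes (-4.02 for Slc1a5). Directions reversed for Slc38a1 (0.0068 after quantile normalization, 0.22 after cyclic loess, 0.072 after median centring, -0.71 to 0.063 without single arrays), Slc7a5 (0.024, 0.077 and 0.092 under these scalings, -0.94 to 0.44 without single arrays, positive without control replicate 3, 0.30, and Mef2c-deficient replicate 1), Slc38a2 (0.027) and Glud1 (0.093), the last pair after cyclic loess. For the shifts other than those of scaling, the cause was not tested.

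Of the pathway genes, 0 passed the adjusted threshold as reported, 19 with array weights and 0 to 2 when single arrays were left out, the 2 being Idh1 and Psat1 without Mef2c-deficient replicate 3. All genes called numbered 2 as reported, 1154 with array weights and 0 with the block, the methods' t-test or another scaling. They numbered 12, 1 and 159 without Mef2c-deficient replicates 1, 2 and 3, and 0 without any single control array. Pathway genes lower at an unadjusted p under 0.05 numbered 32 as reported (22.5%, against 20.9% of all genes). Under other scalings they numbered 12 to 16 (8.45% to 11.3%, against 10.2% to 11.1%). Without single arrays they numbered 19 to 38 (21 without control replicate 1 and 19 without control replicate 3). The 38 were found without Mef2c-deficient replicate 3 (26.8%, against 23.7% of all genes). The named pathway genes kept their direction under the alternatives in which they were tested. Those that change only the filter, the test or the base could not reverse it. Slc38a1 has no value without probe sets that can bind related transcripts. The 3 arrays a group limit what can be told apart, most of all in dim genes.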
